A study of Mus musculus with 8 samples.

Results

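The orthogonal adoptive cell therapy (ACT) PD1d/2V/33 was profiled in B16-OVA melanomas at day 5 and again at day 12 after the first transfer, with 1 single-cell library of sorted tumor leukocytes at each day. A cell entered the comparison where its barcode carried the suffix of either library and where it held 500 to 6000 genes, 2000 to 40000 unique molecular identifiers (UMIs, counts of distinct captured RNA molecules) and under 10% mitochondrial UMIs. These limits kept 2410 of 2500 barcodes at day 5 and 1665 of 2500 at day 12. The comparison therefore held 4075 cells, of 13046 cells that passed in all 8 libraries and 15700 deposited barcodes.

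C57BL/6 mice bearing subcutaneous B16-OVA tumors, a mouse melanoma line that makes ovalbumin, received CD45.1+ OT1 cells, CD8+ T cells whose receptor recognizes an ovalbumin peptide. Mice had no lymphodepletion and so kept their own lymphocytes, and no age was given in the labels. The PD1d/2V/33 group received OT1 cells transduced with PD1d and IL-2v, mixed in equal parts with OT1 cells transduced with PD1d and IL-33. Per the methods of the study a repeat infusion followed a few days after the first, before day 5. The day 5 tumors were therefore sampled sooner after the repeat infusion than the day 12 tumors, and its part was not tested. PD1d is the ectodomain of mouse PD-1 fused to a human Fc. The transgenes were codon optimized, so whether Pdcd1 reads include PD1d is not known. IL-2v is an IL-2 that does not bind CD25, the alpha chain of its receptor. The controls used here were untransduced OT1 cells, sampled at the same days. Each library pooled the tumors of 5 mice and was sorted for CD45+ cells with enrichment of CD8+ cells, so the share of CD8+ T cells was partly set by the sort. Transferred and host CD8+ T cells were not separated here. The day 5 library had a sequencing run of its own, while the day 12 library shared a run with the untransduced day 12 library, so day and run cannot be told apart. With 1 library a day no difference has a replicate check. The intervals given are 95% intervals that cover counting error only.

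Cytotoxic T cells and natural killer (NK) cells kill by releasing perforin, which opens the way into a target cell, and granzymes, serine proteases that enter it. Granzyme B is the best-known trigger of apoptosis among them, and its relatives C to G are encoded beside it in the mouse and are known from strongly activated cytotoxic lymphocytes. IL-2 acts on T and NK cells through the beta and common gamma chains of its receptor, and IL-33 acts through ST2, the product of Il1rl1, which type 2 innate lymphoid cells, regulatory T cells and some effector T cells carry.

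Of the 2500 barcodes of each library, 33 fell under 2000 UMIs at day 5 and 773 at day 12. The deposited libraries held 400, 1500, 2200, 2500 or 3700 barcodes, round numbers that may have been preset. Whether the barcodes of few UMIs hold cells was not tested, which limits the shares over all deposited barcodes. Cells that passed held a median of 5911.5 UMIs at day 5 and 6789 at day 12, with a median of 3.36% and 2.76% mitochondrial UMIs. The libraries shared 10 barcodes, against 0 to 17 in the other 27 pairs of libraries. Cell classes were set by gates on the UMIs of marker genes. In the CD8 T gate the Cd3 genes summed to 1928 counts per 1000000 UMIs of the gate (CPM) at day 5 and 2660.2 at day 12, and the 11 monocyte and macrophage markers to 37.5 and 33.2 CPM. In the NK gate the 10 NK markers summed to 3044 and 2243 CPM and the Cd3 genes to 7.93 and 11.8. The myeloid gate held 6922 and 14887 CPM of its own markers and 3.65 and 14.2 CPM of Cd3 genes. The gates were set on these same markers, so the sums describe the gates and are no check of cell identity. Neutrophil markers moved between the libraries in all 3 gates, from 2.03 to 43.9 CPM in the CD8 T gate, from 8.10 to 66.0 in the NK gate and from 1080.4 to 160.2 in the myeloid gate. Their part in the results below was not tested.

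CD8 T cells took a larger share of the leukocytes at day 12 and NK and myeloid cells a smaller one. The CD8 T gate held 498 cells at day 5, or 20.7% (exact binomial interval 19.1 to 22.3), and 725 cells at day 12, or 43.5% (41.1 to 46.0), a difference of 22.88 percentage points (19.96 to 25.78). Over all deposited barcodes the shares were 20.5% and 31.2%, a difference of 10.72 points. There 4.76% of barcodes at day 5 and 24.6% at day 12 fell in no gate, against 3.78% and 3.18% of the cells that passed. NK cells made up 42.2% (40.3 to 44.2) at day 5 and 21.3% (19.4 to 23.4) at day 12, from 1018 and 355 cells. Myeloid cells, which are monocytes and macrophages here, made up 14.4% (13.1 to 15.9) and 7.81% (6.56 to 9.20), from 348 and 130 cells. The ratio of CD8 T to NK cells was 0.489 at day 5 and 2.04 at day 12, and in the day 26 library of the same ACT it was 26.6. With untransduced OT1 cells this ratio was 0.936 at day 5 and 0.661 at day 12, the latter from 41 CD8 T and 62 NK cells.

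**Figure D1:**
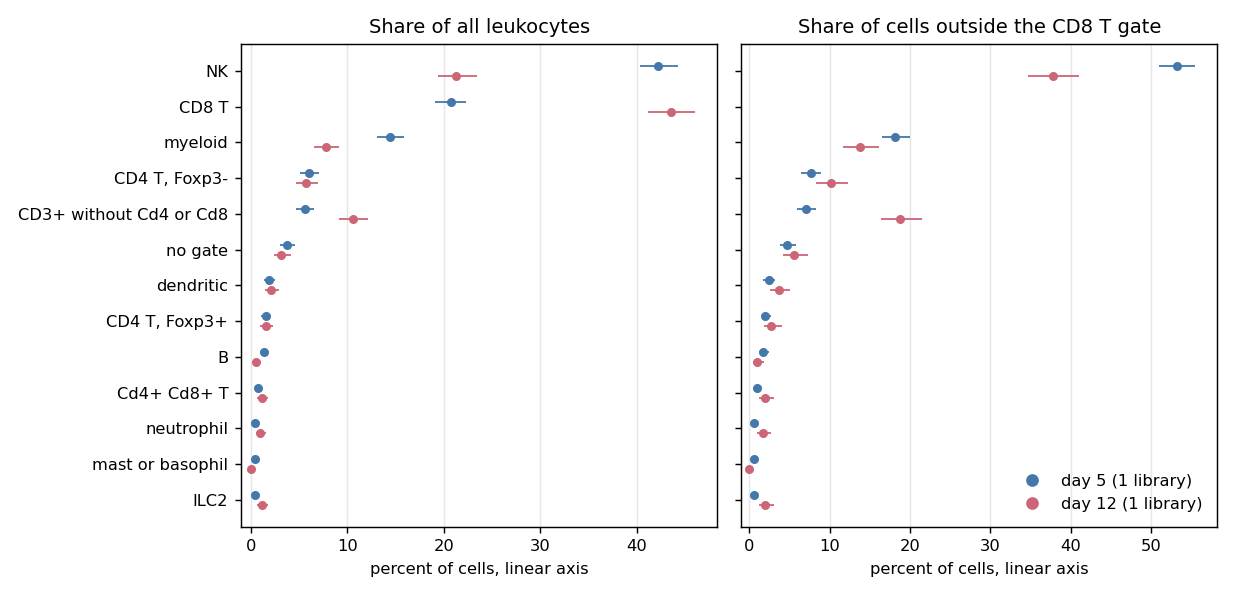
Share of each gated class in percent (horizontal axis, linear) at day 5 and day 12, as a share of all cells and of cells outside the CD8 T gate. Points are single libraries and bars are exact 95% binomial intervals. The CD8 T share lies at 20.7% and 43.5%, and the NK share at 42.2% and 21.3%.

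Because the sort favored CD8+ cells, shares were also taken among cells outside the CD8 T gate. There the NK share was 53.2% at day 5 and 37.8% at day 12, a difference of -15.48 points (-19.32 to -11.57), so NK cells stayed lower. Over all deposited barcodes the NK difference was -27.39 points. Under an alternative cell filter of 400 to 3000 genes, 500 to 12000 UMIs, under 5% mitochondrial and under 50% ribosomal UMIs, with lower floors and tighter upper limits than the main one, it was -32.00. T cells with Cd3 but no Cd4 or Cd8 UMI went the other way, with 7.06% and 18.8%, a difference of 11.77 points (9.02 to 14.64), or 5.57 over all deposited barcodes. With gates set after thinning each cell to 2000 UMIs this class held 10.6% and 24.9%. It may hold CD8 T cells whose Cd8 was not captured, so the sort may still shape the shares outside the CD8 T gate. The myeloid share was 18.2% and 13.8%, a difference of -4.37 points (-7.17 to -1.45). That difference had the opposite sign, 2.77 points, under the alternative filter, where the myeloid gate held 181 and 135 cells, and was -8.51 over all deposited barcodes. The depth of the myeloid gate differed as well, with a median of 10456 UMIs at day 5 and 6182 at day 12. CD4 T cells without Foxp3 held 7.64% and 10.2%, from 146 and 96 cells. Over all deposited barcodes the direction turned, with 7.55% and 5.64% from 150 and 97 barcodes. In that base 119 barcodes at day 5 and 614 at day 12 fell in no gate, or 5.99% and 35.7%. CD4 T cells with Foxp3, the regulatory T cell factor, held 1.99% and 2.77% with an interval of the difference of -0.42 to 2.17. Cells with type 2 innate lymphoid (ILC2) markers were 11 at day 5, or 0.575%, and 19 at day 12, or 2.02%. The mast cell and basophil gate held 12 cells at day 5, or 0.628%, and 0 of 940 at day 12, which allows a share of up to 0.392%.

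Expression was compared within a gate as CPM of the UMIs summed over its cells. A gene counted as higher or lower where log2((CPM at day 12 + 10)/(CPM at day 5 + 10)) was at least 1 in size, a 2-fold ratio, among genes with at least 50 UMIs in both libraries together. In the CD8 T gate 8870 genes were compared, of which 32 were higher at day 12 (0.361%) and 26 lower (0.293%), 0.654% in either direction, with a median log2 ratio of -0.13 over all genes. Scaling by TMM or median-of-ratios factors moved that median to 0.00, and the counts became 50 higher and 14 lower. Values below are scaled by total UMIs, so a gene at the median reads -0.13.

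Granzymes C to G were among the genes with the highest ratios in CD8 T cells at day 12. Gzmd stood at 12.9 CPM (9.75 to 16.7) at day 5 and 311 (298 to 325) at day 12, a log2 ratio of 3.81 (3.58 to 4.03). Gzmg was at 2.26 and 135 CPM (log2 ratio 3.57) and Gzmf at 144 and 1096 (2.85). Gzme was at 13.6 and 148 CPM (2.75) and Gzmc at 135 and 816 (2.51). All 5 intervals lay apart between the days, but they treat UMIs as independent and do not measure spread between cells or mice. At day 5 the 636 Gzmf UMIs lay in 7 of 498 cells. Gzmb behaved otherwise, at 1831 CPM at day 5 and 1222 at day 12, a log2 ratio of -0.58. Granzyme A (Gzma), encoded elsewhere in the genome, was at 1981 and 1380 CPM and perforin (Prf1) at 142 and 98.0, with log2 ratios of -0.52 and -0.49. Of the 6 granzymes B to G, 5 were past 2-fold higher and 0 lower, with a median log2 ratio of 2.80. Granzymes C to G are close copies of each other, so reads may be shared among them and their separate values are uncertain.

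The granzyme C to G transcripts came from a minority of CD8 T cells that was larger at day 12. Gzmc UMIs were found in 32 cells at day 5 and in 167 at day 12, Gzmf UMIs in 7 and 108 cells, and Gzmd UMIs in 8 and 76 cells. After each cell was thinned to 2000 UMIs, 3.61% of CD8 T cells at day 5 and 13.8% at day 12 held a Gzmc UMI, against 0.575% and 0% in the myeloid gate, which should lack it. Gzmf was seen in 1.20% and 9.93% of thinned CD8 T cells and Gzmb in 65.7% and 56.1%. The share of thinned cells with at least 2 of the 6 granzymes B to G was 3.41% (2.00 to 5.41) at day 5 and 15.0% (12.5 to 17.8) at day 12. Expression was concentrated at both days, and the tenth of cells with the most Gzmc held all of its UMIs at day 5 and 96.1% at day 12. Among cells of at most 12000 UMIs, 389 at day 5 and 545 at day 12, Gzme had a log2 ratio of 0.91 and Gzmd of 2.40, while Gzmc and Gzmf had 1.96 and 2.93.

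**Figure D2:**
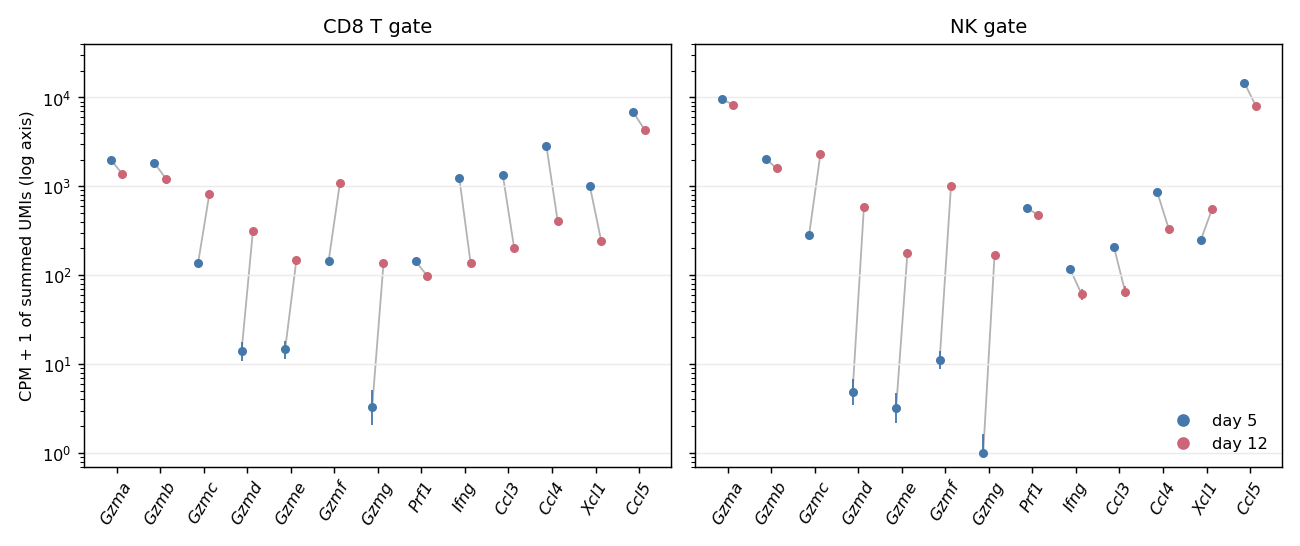
CPM + 1 of the UMIs summed over a gate (vertical axis, log scale) for granzymes, perforin, interferon-gamma and chemokines in the CD8 T and NK gates. Points are the day 5 and day 12 libraries and bars are exact 95% Poisson intervals. Gzmc to Gzmg lie higher at day 12 in both gates and Gzmb does not, while Xcl1 lies lower in CD8 T cells and higher in NK cells.

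The sequence before the start of the gene was nearly the same in granzymes C to G, which are close copies. The sequences are from RefSeq on GRCm38.p6, all on the minus strand of chromosome 14, each 90 bases long. The windows begin 95 bases before the annotated start for Gzmc, 99 for Gzmd, 100 for Gzme, 120 for Gzmf and 115 for Gzmg. They lie at chr14:56234663-56234752 for Gzmc, chr14:56132603-56132692 for Gzmd, chr14:56120636-56120725 for Gzme, chr14:56211438-56211527 for Gzmf and chr14:56159605-56159694 for Gzmg. Capitals mark a match to TGANNTCA, letters that were chosen after the sequences were seen.
Gzmc: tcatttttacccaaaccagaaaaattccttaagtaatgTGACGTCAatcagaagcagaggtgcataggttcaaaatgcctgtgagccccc
Gzmd: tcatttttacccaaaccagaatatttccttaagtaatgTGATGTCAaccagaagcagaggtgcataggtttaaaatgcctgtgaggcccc
Gzme: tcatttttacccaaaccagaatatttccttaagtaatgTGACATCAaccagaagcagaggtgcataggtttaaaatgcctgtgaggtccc
Gzmf: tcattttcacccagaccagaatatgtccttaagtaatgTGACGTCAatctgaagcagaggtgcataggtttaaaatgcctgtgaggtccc
Gzmg: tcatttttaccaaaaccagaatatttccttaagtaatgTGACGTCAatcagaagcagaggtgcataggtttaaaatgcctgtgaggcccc
The 10 pairs of these windows were 90.0% to 96.7% identical. The closest ungapped window of the Gzmb promoter matched them at 36.7% to 40.0% of bases. The letters TGACGTCA, the cyclic AMP response element, stood before Gzmc, Gzmf and Gzmg, and in 1.79% of 32851 promoter windows of 250 bases before to 50 after the start. TGANNTCA, which contains it and is its own reverse complement, was in 14.1% of them and in 5 of the 6 granzymes. These matches describe letters and do not show binding, and no relation between the sequences and the levels was tested.

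Interferon-gamma and chemokine transcripts went the opposite way in CD8 T cells. Ifng, the main effector cytokine of CD8 T cells, was at 1251 CPM (1218 to 1285) at day 5 and 137 (128 to 146) at day 12, a log2 ratio of -3.10, the lowest among genes that define no gate. Ccl4 was at 2879 and 407 CPM (-2.79), Ccl3 at 1342 and 203 (-2.67) and Xcl1, which attracts cross-presenting dendritic cells, at 999 and 243 (-1.99). These 4 genes together with Ccl9 were the 5 of 13 measured cytokines and chemokines past 2-fold lower, and Spp1 (osteopontin) was the 1 past 2-fold higher, at 45.6 and 202 CPM. Csf2 was at 31.4 and 29.2 CPM, and Tnf at 4.97 and 14.9, a log2 ratio of 0.73. The list's median was -0.45.

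The share of CD8 T cells with an Ifng UMI did not follow the CPM. Ifng UMIs were in 130 of 498 CD8 T cells at day 5 and in 251 of 725 at day 12, and after thinning in 14.7% (11.7 to 18.1) and 14.9% (12.4 to 17.7), against 1.15% and 0.769% in the myeloid gate. The tenth of CD8 T cells with the most Ifng held 97.7% of its UMIs at day 5 and 75.0% at day 12. Xcl1 was alike, in 14.7% and 16.1% of thinned cells, whereas Ccl3 was in 13.9% and 7.31% and Ccl4 in 24.9% and 17.2%. The ratios were smaller without the cells of many UMIs. Under the alternative filter the log2 ratios were -0.65 for Ifng, -0.86 for Xcl1, -1.42 for Ccl3 and -1.55 for Ccl4, and among cells of at most 12000 UMIs they were -1.51, -1.10, -0.64 and -1.16.

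Other genes higher in CD8 T cells at day 12 included the interferon-induced transmembrane genes, which encode antiviral membrane proteins, and the receptor adaptor Fcer1g. Ifitm2 was at 77.9 and 679.6 CPM (log2 ratio 2.97), Ifitm3 at 56.7 and 226 (1.83) and Ifitm1 at 283 and 628 (1.12). Fcer1g, the signaling adaptor that NK cells and myeloid cells use with Fc receptors, was at 54.7 and 264 CPM (2.08), in 5.22% and 16.1% of thinned cells. Ly6c2, a surface protein of effector and memory CD8 T cells, was at 711 and 1626 CPM (1.18), in 57.2% and 74.8%. These were the 5 past 2-fold higher of 16 measured genes of a list of NK-type receptors and adaptors, of which Fcer1g is an adaptor and the others are membrane proteins that are not NK receptors. Of the list 0 were lower and 15 of the 16 were above 0, with a median of 0.47. Over all genes of the gate 2602 of 8870 were above 0. Klrg1, a receptor of terminal effector cells, was below the 2-fold limit at 16.5 and 28.3 CPM. Anxa1, a phospholipid-binding protein, was at 7.0 and 74.5 CPM, with UMIs in 25 and 240 cells. The insulin receptor substrate Irs2 was at 9.26 and 53.2 CPM and the uridine phosphorylase Upp1 at 1.81 and 37.6. The ratio of Ifitm3 was 0.66 under the alternative filter and 0.94 among cells of at most 12000 UMIs.

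A few genes of naive and memory cells and 1 of the cell cycle were past 2-fold lower at day 12. Of 14 naive and memory genes 3 were past 2-fold lower and 0 higher, and 13 were below 0, with a median of -0.58 beside -0.13 over all genes. Most genes of the gate, 6268 of 8870, were below 0 as well. Slamf6, a surface marker of precursor cells, was at 74.3 and 17.9 CPM (-1.59). Klf2, which drives the exit receptor S1pr1, was at 142 and 65.2 CPM (-1.01), and the related factor Klf3 at 63.5 and 26.7 (-1.0). With TMM factors Klf2 had -0.84 and Klf3 -0.85, short of 2-fold, and Slamf6 -1.45. Tcf7, which encodes the precursor factor TCF1, was at 101 and 48.7 CPM (-0.92) and was seen in 18.3% and 10.8% of thinned cells, while Il7r was at 42.5 and 34.3 and Lef1 at 45.0 and 40.7. Of 24 cell cycle genes Mki67 was the only member past 2-fold lower, at 142 and 60.2 CPM (-1.12, or -0.95 with TMM factors), and 23 were below 0, with a median of -0.44. Cells with a Mki67 or Top2a UMI made up 20.1% (16.6 to 23.9) and 13.4% (11.0 to 16.1) of the thinned gate. Myc was at 46.5 and 13.7 CPM (-1.25), and Zbtb32, a repressor induced in activated lymphocytes, at 102 and 27.4 (-1.58). Myc had a ratio of -0.49 under the alternative filter.

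Inhibitory receptors and exhaustion factors stayed within 2-fold, as did most genes of the CD8 T gate. Of 10 inhibitory receptors 0 were past the limit in either direction, with a median of -0.25 that lay near the median of all genes. Of 8 exhaustion factors 0 were, with a median of -0.48. Over all genes of the gate 0.654% were past the limit, so a count of 0 does not set these short lists apart. Pdcd1 was at 218 and 228 CPM, Lag3 at 156 and 113, Havcr2 (TIM-3) at 58.5 and 52.5 and Tigit at 142 and 108. Tox, a factor needed for the exhausted state, was at 52.4 and 27.6 CPM (-0.73). Serpinb6b, an inhibitor of granzymes, was at 518 and 168 CPM (-1.57), and the interferon-induced gene Ifi27l2a at 994 and 343 (-1.51). Il2ra, which encodes CD25, was at 148 and 76.0 CPM and Il2rb at 415 and 388.

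At day 26, with 2288 cells in the CD8 T gate, the granzymes C to G were below their day 5 levels. Gzmc stood at 10.5 CPM, Gzmf at 4.10 and Gzmd at 1.21. Slamf6 was at 76.7 CPM, Tcf7 at 121 and Klf2 at 312, all above their day 12 levels. Ifng was at 130.4 CPM, close to day 12, and Ccl4 at 719. Of the 3 days, the middle one held the highest granzyme C to G levels.

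**Figure D3:**
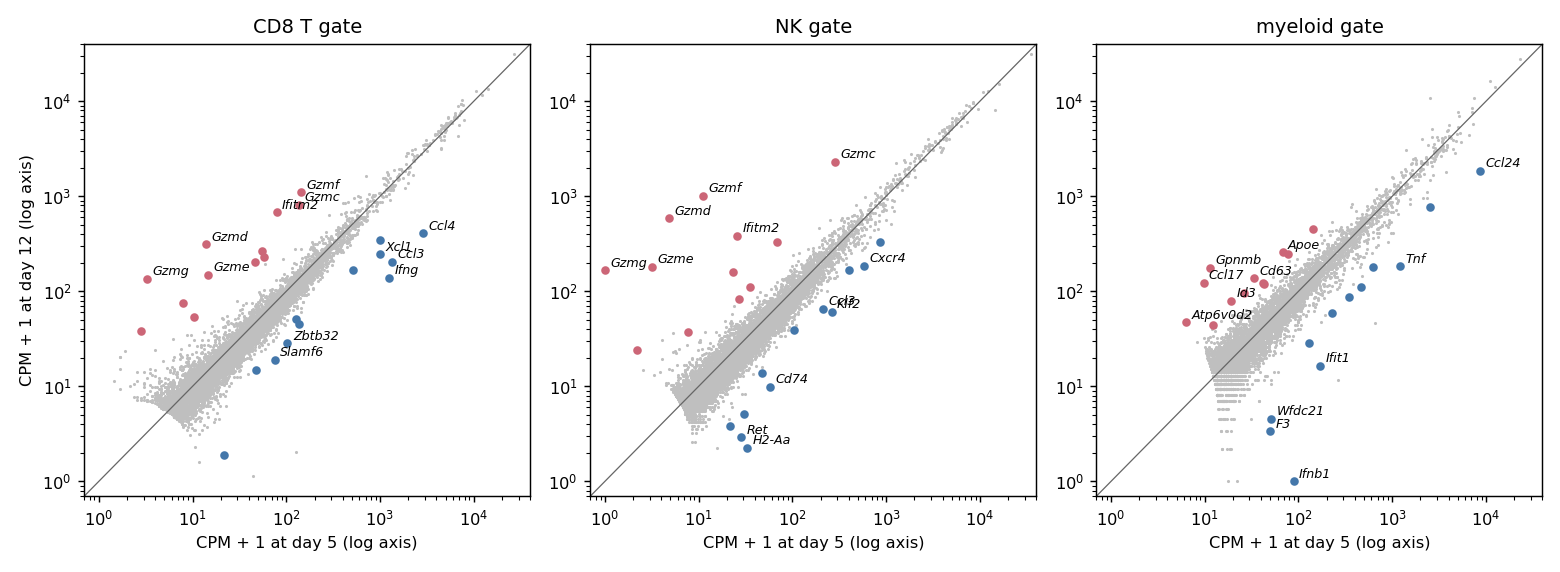
CPM + 1 at day 5 (horizontal) against CPM + 1 at day 12 (vertical), both on log axes, for the genes compared in the CD8 T (8870), NK (8406) and myeloid (6509) gates, with the 12 highest and 12 lowest named genes of each gate colored. Each point is a gene and the line marks equal values. Granzymes C to G stand above the line in the CD8 T and NK gates, and Ifnb1, Tnf and Ccl24 below it in the myeloid gate.

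In the NK gate, with 5929253 UMIs at day 5 and 3137397 at day 12, the same granzymes were higher at day 12. Of 8406 genes 30 were higher (0.357%) and 27 lower (0.321%), 0.678% in either direction, with a median of -0.13. With TMM factors 36 were higher and 20 lower. Gzmc was at 281 CPM (268 to 295) at day 5 and 2289 (2236 to 2342) at day 12, a log2 ratio of 2.98. Gzmd was at 3.88 and 583 CPM (5.42), Gzmf at 10.1 and 1011 (5.67) and Gzme at 2.19 and 179 (3.96). Gzmg had 0 UMIs at day 5 and 166 CPM at day 12, at least 328-fold higher against a floor of 3 counts in the day 5 library. That bound treats UMIs as independent, while the day 12 UMIs lay in few cells, as given below, so its size is uncertain. Gzmb was at 2040.2 and 1589.5 CPM (-0.36), Gzma at 9512 and 8308 and Prf1 at 573 and 474. Of the 6 granzymes B to G, 5 were past 2-fold higher, with a median of 4.05, or 4.69 with Gzmg at its bound.

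Of granzymes C to G, Gzmc was in the most NK cells at both days and Gzmg in the fewest. Gzmc was in 7.56% of thinned NK cells at day 5 and 28.5% at day 12, Gzmd in 0.0982% and 9.01%, and Gzmf in 0.786% and 3.10%. At day 12 Gzmf UMIs were in 26 NK cells, and 41.5% of them were in 1 cell. Gzmg UMIs were in 12 cells, and in 1.69% of cells after thinning. At least 2 of the granzymes B to G were seen in 6.09% (4.70 to 7.74) and 25.9% (21.4 to 30.8) of thinned NK cells. Among cells of at most 12000 UMIs, 978 at day 5 and 273 at day 12, the log2 ratio was -0.25 for Gzmf and 0.08 for Gzmg, while Gzmc stayed at 1.65, Gzmd at 3.15 and Gzme at 1.89.

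Summed over the 6 granzymes B to G, NK cells reached 2337 CPM at day 5 and 5818 at day 12, and CD8 T cells 2139 and 3729. CD4 T cells without Foxp3 went from 558 to 130.5 CPM, and myeloid cells held 55.6 and 28.5. Of all granzyme B to G UMIs in the library, CD8 T cells held 36.5% at day 5 and 55.8% at day 12, and NK cells 53.4% and 39.8%. NK cells thus held the higher CPM at both days, and CD8 T cells the larger part of the library's granzyme UMIs at day 12.

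The summed CPM of Xcl1 went opposite ways in NK and CD8 T cells, while that of Ccl3 and Ccl4 was lower in both. In NK cells Xcl1 was at 249.8 and 559 CPM, a log2 ratio of 1.13, and was the only gene past 2-fold higher in the NK gate and past 2-fold lower in the CD8 T gate. It was seen in 20.2% and 31.8% of thinned NK cells. In CD8 T cells Xcl1 UMIs were in 111 of 498 cells at day 5 and in 210 of 725 at day 12. The tenth of CD8 T cells with the most Xcl1 held 95.5% and 82.8% of its UMIs. The share of CD8 T cells with Xcl1 was thus not lower at day 12. In NK cells Ccl3 was at 209 and 64.4 CPM (-1.56), Ccl4 at 852 and 333 (-1.33), and Ifng at 115 and 60.2 (-0.83). Without cells above 12000 UMIs Ccl4 had a ratio of -0.77.

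The factor Klf2, the exit receptor S1pr1 and the homing receptor Cxcr4 were past 2-fold lower in NK cells at day 12. Klf2 was at 261 and 60.2 CPM (-1.95), the lowest ratio of the gate among named genes, and its target S1pr1, the receptor by which lymphocytes leave tissue, at 30.0 and 7.33 (-1.21). Cxcr4, a chemokine receptor for bone marrow homing, was at 574 and 184 CPM (-1.59), while the monocyte and NK chemokine receptor Ccr2, at 547 and 269 (-1.0), fell just short of the limit. Of 11 homing and residency genes measured Cxcr4 was the 1 past 2-fold lower and 0 were higher, with 10 below 0 and a median of -0.39. Over all 8406 genes of the gate 5677 were below 0, with a median of -0.13. Itga1, an integrin of tissue-resident cells, was at 18.4 and 40.8 CPM (0.84). Of 12 naive and memory genes measured here 2 were past 2-fold lower and 12 were below 0, with a median of -0.39, and of 24 cell cycle genes 0 were past the limit, with a median of -0.08.

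Other named genes of the NK gate included the metallothionein genes. Mt1 was at 22.3 and 159 CPM (2.39) and Mt2 at 1.18 and 23.3 (1.57). Ifitm2 was at 24.8 and 382 CPM (3.49), Spp1 at 67.6 and 331 (2.13), and hexokinase 2 (Hk2), the first enzyme of glycolysis, at 10.6 and 36.0 (1.16). Ret, a receptor tyrosine kinase, was at 27.2 and 1.91 CPM (-1.64), and Prdm1, which encodes the factor Blimp-1, at 37.4 and 12.4 (-1.08, or -0.98 with TMM factors). The class II genes H2-Aa (-1.90) and Cd74 (-1.81) rested on few cells, with 80.5% of the day 5 H2-Aa UMIs and 58.9% of the Cd74 UMIs in 1 cell, and without that cell their ratios were -0.61 and -0.96. All 10 NK gate markers, with a median of -0.50, were below 0, as were 5677 of all 8406 genes. Eomes was at 265 and 178 CPM and Ncr1 at 211 and 189. The gate itself used these genes. The day 5 level of Ncr1, which encodes the activating receptor NKp46, stood below the 752 CPM of untransduced ACT at that day.

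Of the genes past 2-fold higher in the CD8 T and NK gates, 13 were shared, or 40.6% and 43.3% of each set. They were the 5 granzymes C to G with AA467197, Cdh1, Gm10263, Ifitm2, Lgals3, S100a8, S100a9 and Spp1. S100a8 and S100a9 belong to the neutrophil markers whose levels moved in these gates. Ccl3, Ccl4, Klf2 and Myc were the 4 genes lower in both, or 15.4% of the CD8 T set and 14.8% of the NK set. Gm10263 was higher and Ccl4 lower in all 3 gates.

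**Figure D4:**
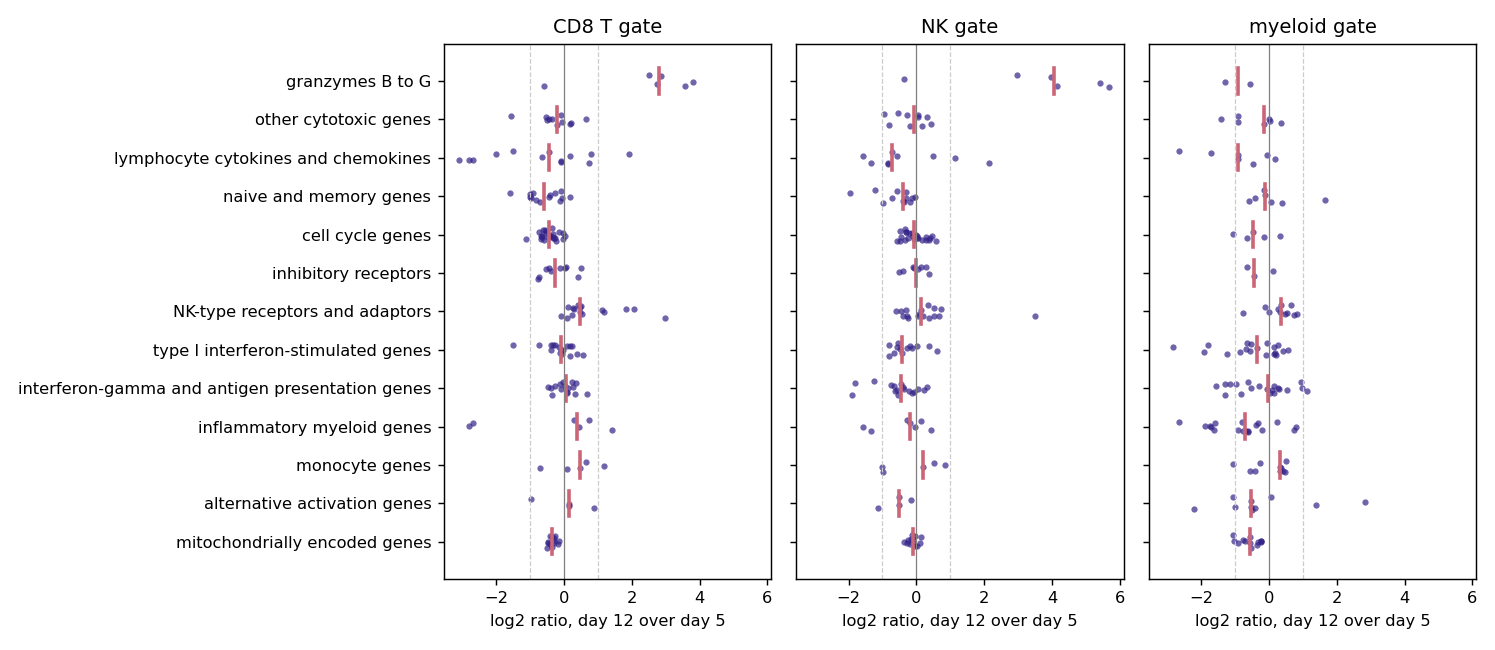
Log2 ratio of CPM, day 12 over day 5 (horizontal axis), for each member of the gene lists in the CD8 T, NK and myeloid gates. Dark points are genes with at least 50 UMIs, rose vertical marks are list medians and dashed lines mark a 2-fold ratio. Granzymes B to G have medians of 2.80 and 4.05 in the CD8 T and NK gates, and inflammatory myeloid genes a median of -0.72 in the myeloid gate.

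In the myeloid gate, with 3561766 UMIs at day 5 and 842574 at day 12, interferon beta and some inflammatory cytokines were lower at day 12. Of 6509 genes 37 were higher (0.568%) and 93 lower (1.43%), 2.00% in either direction, with a median of -0.05. Ifnb1, the type I interferon, had 313 UMIs in 42 of 348 cells at day 5, 87.9 CPM, and 0 UMIs in 130 cells at day 12. Against a floor of 3 counts it was at least 24.7-fold lower, a bound that treats UMIs as independent. Tnf was at 1198 CPM (1162 to 1234) and 183 (155 to 214), a log2 ratio of -2.65, and was seen in 65.2% and 14.6% of thinned cells. Il6, the acute-phase cytokine, was at 376 and 117 CPM (-1.60), in 33.3% and 13.1%. Il1a was at 193 and 55.8 CPM (-1.63), while Il1b, the secreted interleukin-1, was at 4433 and 3885 (-0.19). Of 18 inflammatory myeloid genes 6 were past 2-fold lower and 0 higher, with a median of -0.72.

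Chemokines were among the lowest ratios in myeloid cells. Ccl24, an eosinophil attractant of alternatively activated macrophages, was at 8637 and 1847 CPM (-2.22), in 69.3% and 36.9% of thinned cells. The monocyte attractants Ccl12 and Ccl7 were at 343 and 85.5 CPM (-1.89) and at 624 and 180.4 (-1.73), and Ccl2 at 1107 and 716 (-0.62). Tissue factor (F3), which starts coagulation, was at 48.6 and 2.37 CPM and the immediate-early factor Egr1 at 465 and 109. Ccl12 had a ratio of -0.49 under the alternative filter and Ccl7 of -0.88 among C1q-positive cells, those with at least 2 C1q UMIs after thinning.

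Interferon-stimulated genes differed among themselves. Ifit1 was at 170.1 and 15.4 CPM (-2.82), Oasl1 at 130 and 27.3 (-1.91), Rsad2, which encodes the antiviral enzyme viperin, at 226 and 58.2 (-1.79) and Ifit2 at 63.7 and 21.4 (-1.23). These were the 4 of 19 type I list members past 2-fold lower, and 0 were higher. Irf7 was at 159 and 186 CPM and Mx1 at 15.2 and 20.2, and the list's median was -0.35. Of the genes induced by interferon-gamma, Cxcl10, which attracts CXCR3+ T cells, was at 2352 and 966 CPM (-1.28), Gbp2 at 2109 and 952 (-1.14), Gbp4 at 449 and 179 (-1.28) and Ciita, the class II transactivator, at 36.8 and 5.93 (-1.55). These were the 4 of 20 list members past 2-fold lower. The class II gene H2-Eb1 was the 1 past 2-fold higher, at 1402 and 3050.2 CPM (1.12), while H2-Aa at 2626 and 5120 (0.96) and H2-Ab1 at 2051 and 4026 (0.97) did not reach the limit. H2-Eb1 was in 67.0% and 80.8% of thinned cells, and its ratio was 0.91 under the alternative filter.

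The promoters of the interferon-stimulated genes were read for the interferon-stimulated response element, searched on both strands as GAAA followed by any 2 bases and GAAA again, and 70 bases are shown for the members with the lowest ratios that held a match, which capitals mark. The sequences are from RefSeq on GRCm38.p6, chr19:34640764-34640833 on the plus strand for Ifit1 and chr12:26456533-26456602 on the minus strand for Rsad2.
Ifit1: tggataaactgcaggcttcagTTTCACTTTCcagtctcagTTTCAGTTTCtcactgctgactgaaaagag
Rsad2: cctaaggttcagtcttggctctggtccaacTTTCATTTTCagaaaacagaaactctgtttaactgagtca
The element was in 6 of the 14 list members with a promoter entry, namely Bst2, Ifit1, Ifit3, Isg15, Rsad2 and Stat2, and in 3.44% of all promoters. Among other members with a match, Isg15 was at 775 and 485 CPM (-0.66) and Ifit3 at 14.6 and 3.56 (-0.86). Ifit3 lay near the 10 CPM added at both days, which makes its ratio smaller. No relation between the element and the ratios was tested.

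Lysozyme (Lyz2), a gate marker, was at 2546 CPM at day 5 and 10750.4 at day 12, while untransduced ACT had 12766 at day 5 and day 26 had 13274. The day 5 library thus stood apart from the others in this gene. C1q-positive cells were 42.0% (36.7 to 47.3) of the myeloid gate at day 5 and 31.5% (23.7 to 40.3) at day 12, so the make-up of the gate also differed. Of 10 alternative activation genes 2 were past 2-fold higher, 2 lower and 7 below 0, with a median of -0.52. Over all 6509 genes of the gate 3606 were below 0. Chil3 was at 3724 and 1787 CPM (-1.05), the mannose receptor gene Mrc1 at 278 and 188 and Arg1, the arginase that depletes arginine, at 980.4 and 679 (-0.52). The lipid carrier Fabp5 was at 969 and 406 CPM (-1.24). Of 10 monocyte genes 0 were past 2-fold higher and 1 lower, with Ccr2 at 469 and 598 CPM and a list median of 0.34.

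Several of the highest myeloid ratios came from very few cells. Of the Gpnmb UMIs at day 12, 95.3% were in 1 cell, all Atp6v0d2 UMIs were in 1 cell, and Ccl17 and Retnla UMIs were in 3 cells each. Apolipoprotein E (Apoe) was at 66.8 and 256 CPM (1.79), with 39.4% of day 12 UMIs in 1 cell and a ratio of 1.20 without that cell. Broader genes were Ifitm6 at 142 and 451 CPM (1.60), with UMIs in 163 and 63 cells, the monocyte gene Mcemp1 at 25.3 and 96.1 (1.59) and Gm9733 at 75.8 and 244 (1.57). Among C1q-positive cells alone, Ifitm6 had a ratio of 0.13 and Mcemp1 of 0.44.

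The receptor of the transferred IL-33 was read outside these gates. Il33 UMIs numbered 1 at day 5 and 2 at day 12, all in the CD8 T gate. The transgenes were codon optimized, and the study describes a reference with the transgene sequence only for a later experiment. The Il33 counts may therefore miss the transgene and do not measure its expression. Il1rl1 was highest in CD4 T cells without Foxp3 at day 5, with 757 CPM (704 to 813) in 146 cells, and was at 290.2 CPM (245 to 341) in 96 cells at day 12, with 44.5% and 30.2% of thinned cells positive. Regulatory T cells held 256 and 229.5 CPM and ILC2-marked cells, whose gate uses the gene, 468 and 653. In CD8 T cells it was at 16.3 and 3.50 CPM. Il2ra went from 578 to 72.1 CPM in CD4 T cells without Foxp3 and from 1066 to 763 in regulatory T cells, which carry CD25 constitutively. Gzmb in CD4 T cells without Foxp3 was at 551 and 125 CPM. That class was set by the lack of a Foxp3 UMI and may hold regulatory T cells whose Foxp3 was not captured, which was not tested.

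With untransduced OT1 cells the same days gave other values for many of these genes, from 41 CD8 T cells, 62 NK cells and 14 myeloid cells at day 12. In CD8 T cells the log2 ratio of Gzmc was -2.96 with untransduced ACT, against 2.51 with PD1d/2V/33. With untransduced ACT Gzmc UMIs were in 38 of 514 CD8 T cells at day 5 and in 1 of 41 at day 12. After thinning 2.92% (1.64 to 4.77) and 0% (0 to 8.60) of these cells held one, so a lower level of Gzmc is not shown. Gzmf, Gzmd and Gzme were at 96.1, 17.6 and 18.4 CPM at day 5 with untransduced ACT and had no UMI at day 12, where a count of 0 allows up to 11.1 CPM (3 UMIs in that gate). Against that floor their levels were at least 8.69-fold, 1.59-fold and 1.66-fold lower, beside log2 ratios of 2.85, 3.81 and 2.75 with PD1d/2V/33. These bounds treat UMIs as independent, but at day 5 the UMIs lay in 9, 5 and 9 of 514 cells. A count of 0 in 41 cells allows up to 8.60% of cells with a UMI, so a lower level is not shown. Ifng had -1.64, the same sign as with PD1d/2V/33, and Mki67 had -2.18. In NK cells Gzmc had -0.37, while Klf2 had -1.80 against -1.95, so the lower Klf2 was seen with both treatments. Gzmf was in 5 of 549 NK cells at day 5 and had no UMI in 62 at day 12. Its bound of at least 2.74-fold lower has the same limit. In myeloid cells Tnf had -4.53, Ifit1 -3.49 and Rsad2 -3.40, of the same sign as with PD1d/2V/33, while Ccl7 had 5.78 and Ccl12 had 1.27. These untransduced ratios rest on the 14 myeloid cells of day 12. Ifnb1 was at 107 CPM in 28 of 302 myeloid cells at day 5 with untransduced ACT and had no UMI at day 12. No UMI in 14 cells allows up to 23.2% of cells with one, so a lower Ifnb1 level is not shown there. The differences between the treatments were not tested, as each had 1 library a day. Both day 12 libraries shared a run, so for ratios of the same sign in both treatments day and run cannot be told apart.

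**Figure D5:**
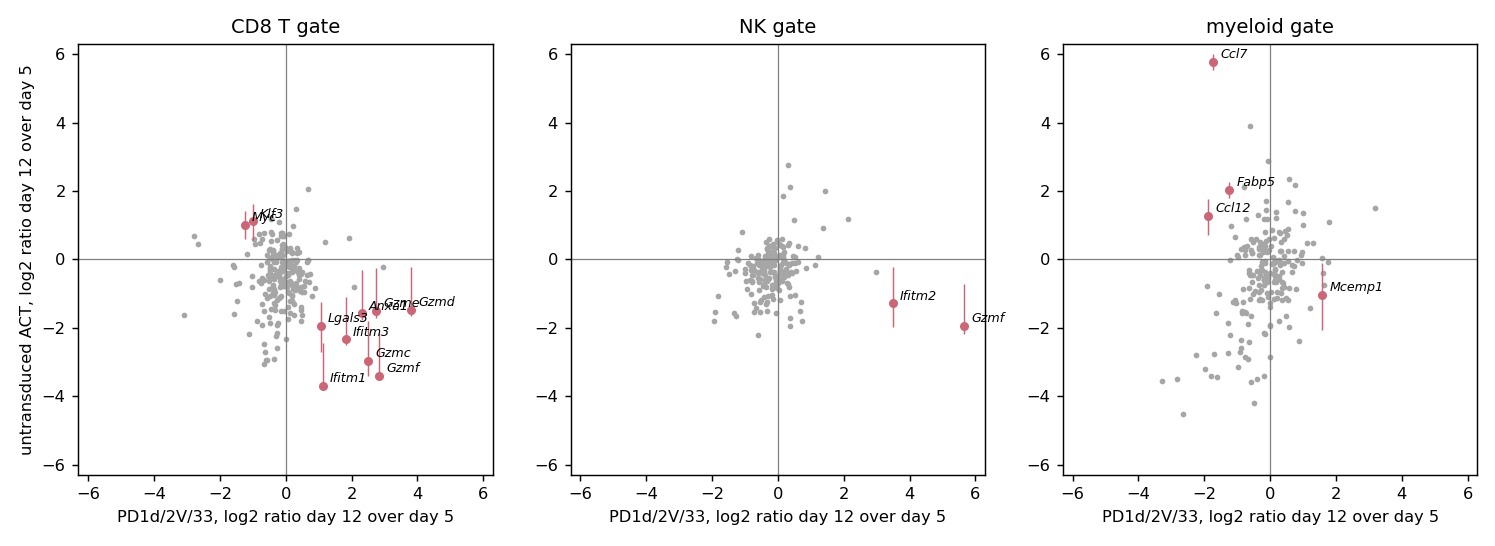
Log2 ratio of CPM, day 12 over day 5, with PD1d/2V/33 (horizontal) and with untransduced OT1 cells (vertical) for the named genes of the CD8 T, NK and myeloid gates. Each point is a gene, and the untransduced day 12 values rest on 41, 62 and 14 cells, with genes at 0 UMIs plotted at the ratio that the added 10 CPM gives. Gzmc to Gzmf lie at the lower right in the CD8 T gate, and Tnf and Ifnb1 at the lower left in the myeloid gate.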

How the data were processed

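Droplet 5′ single-cell RNA libraries of CD45+ tumor leukocytes were deposited as 1 matrix of UMI counts for 27998 genes and 15700 barcodes in 8 libraries, which the authors had aggregated. Per the labels the reads were processed with Cell Ranger 2.2.0 on GRCm38, while the methods of the study name another version, and whether aggregation subsampled reads was not given in the sources used here. Libraries were assigned by barcode suffix. Library totals were 17851327 UMIs at day 5 and 14981578 at day 12.

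Gates counted marker UMIs: CD8 T, at least 2 Cd3 and 1 Cd8 UMIs without Cd4; NK, at most 1 Cd3 UMI and at least 2 NK markers; myeloid, at most 1 Cd3 UMI and at least 4 markers. Cells of more than 1 lineage (3 and 5) were kept apart. Scrublet (scanpy 1.11.5) called 0.332% and 0.300% of cells doublets, so a variant left out the top 6% of scores. Within gates UMIs were summed and compared as CPM with a pseudocount of 10, with exact Poisson and Clopper-Pearson intervals. No test was run. The named genes were the 12 highest and 12 lowest ratios per gate, without gate genes, ribosomal and mitochondrial genes, receptor segments, hemoglobins and Xist, then list members with the largest change or highest CPM, and Il33, Il1rl1, Il2 and Pdcd1. Members and lists were chosen with earlier results of these data known. The scripts were tested on simulated data. Alternatives covered the pseudocount, UMI minimum, scaling (TMM, edgeR 4.0.16), cell filters, gates, thinning and doublets. Values of a few named genes are not reported here.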

Additional observations from a re-analysis of the deposited data

Results flagged for a closer look

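The following 16 genes had log2 ratios past 2-fold in opposite directions with PD1d/2V/33 and with untransduced OT1 cells between the same days, with at least 50 UMIs in each comparison and a counting interval of the untransduced ratio that left out 0. The difference was not tested, and the untransduced day 12 library had 41 CD8 T, 62 NK and 14 myeloid cells. In CD8 T cells the log2 ratios with PD1d/2V/33 and with untransduced cells were 2.51 and -2.96 for Gzmc, 1.06 and -1.95 for Lgals3, -1.0 and 1.11 for Klf3, and -1.25 and 1.02 for Myc. In NK cells Ifitm2 had 3.49 and -1.29. With untransduced cells Gzmc UMIs were in 38 of 514 CD8 T cells at day 5 and 1 of 41 at day 12. Those of Ifitm2 were in 17 of 549 NK cells and 1 of 62. For Gzmc and Ifitm2 a lower level with untransduced cells is thus not shown. In myeloid cells Ccl12 had -1.89 and 1.27, Ccl7 -1.73 and 5.78, Fabp5 -1.24 and 2.03, and Mcemp1 1.59 and -1.03. The counting intervals treat UMIs as independent, and 2 of the 14 untransduced myeloid cells at day 12 were C1q-positive. For these myeloid genes and for Lgals3, Klf3 and Myc the number of untransduced cells with a UMI is not given here. Opposite directions are thus not shown for them either.

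The other genes had no UMI in the untransduced day 12 cells, where a count of 0 allows up to 11.1 CPM in CD8 T and 10.3 CPM in NK cells (3 UMIs in the gate of that library), so their untransduced values are bounds. The bounds treat UMIs as independent. By these bounds Ifitm1 in CD8 T cells, with a log2 ratio of 1.12 with PD1d/2V/33, was at least 10.8-fold lower at day 12 with untransduced cells. Gzmf (2.85) was at least 8.69-fold lower and Ifitm3 (1.83) at least 3.67-fold lower. The bounds of Anxa1 (2.31), Gzme (2.75) and Gzmd (3.81) were 1.79-fold, 1.66-fold and 1.59-fold lower, which do not reach 2-fold. In NK cells Gzmf (5.67) was at least 2.74-fold lower by its bound. At day 5 the UMIs of Gzmf, Gzmd and Gzme lay in 9, 5 and 9 of 514 untransduced CD8 T cells, and those of Gzmf in 5 of 549 NK cells. For these granzymes no UMI in 41 and 62 cells at day 12 does not show a lower level. For Ifitm1, Ifitm3 and Anxa1 the number of day 5 cells with a UMI is not given here. No UMI in 41 cells allows up to 8.60% of cells with one, so their bounds are uncertain too.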

How the results depend on the processing

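With 1 library a day no library could be left out. No paired analysis was possible because the labels number no replicates. In the CD8 T gate the 32 genes higher became 132 with a pseudocount of 1 CPM and 50 with TMM or median-of-ratios factors. The 26 lower became 124, 14 and 14, with 14 under the alternative cell filter and 17 from the mean of single-cell CPM. In the NK gate the 30 higher became 68 with a pseudocount of 1, 18 under the alternative filter and 19 from single-cell means, and the 27 lower became 161 and, from single-cell means, 15. In the myeloid gate the 37 higher became 95 with a pseudocount of 1, 73 with the stricter gate, 116 in C1q-positive cells and 22 in cells of at most 12000 UMIs. The 93 lower became 255 and, in C1q-positive cells, 245. The CD8 T share difference of 22.88 points was 18.78 under the alternative filter, 19.58 with thinned gates and 10.72 over all barcodes. That of NK cells was -31.90 under the alternative filter and -24.44 over all barcodes, and outside the CD8 T gate -32.00 and -27.39. That of myeloid cells was -0.52 under the alternative filter, and outside the CD8 T gate 2.77 and, over all barcodes, -8.51. CD4 T cells without Foxp3 outside that gate had -1.91 over all barcodes. Signs turned for NK Gzmf (-0.33 under the alternative filter, -0.25 at 12000 UMIs) and for narrow myeloid genes. Under the alternative filter Atp6v0d2 had -1.01, Gpnmb -0.38, Gzmc 0.08 and Plet1 -1.12. With thinned gates Ccl17 had -0.74 and Plet1 -2.41, and without high Scrublet scores Gzmc had 0.05. In C1q-positive cells Ccl17 had -0.58 and Plet1 -3.33, and in C1q-low cells Atp6v0d2 had -0.20 and Retnla -0.90. At 12000 UMIs Atp6v0d2 had -0.91, Ccl17 -1.11, Gpnmb -0.20, Gzmc 0.10 and Plet1 -1.86, and without the richest cell Atp6v0d2 had -0.39. The causes were not tested. The limit of 12000 UMIs and the removal of the richest cell were chosen after seeing the data.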

Other observations

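The type 2 cytokines Il13 and Il5 were measured in the CD8 T gate at day 5, and as ILC2 gate markers they were left out of the ranked genes. They were chosen here after their values were seen. Il13 had 552 UMIs in 22 CD8 T cells at day 5, 125 CPM, and 7 UMIs in 7 cells at day 12, 1.02 CPM, a log2 ratio of -3.61. Il5 had 191 UMIs in 7 cells and 1 UMI in 1 cell, 43.2 and 0.146 CPM. At day 5, 50.9% of the Il13 UMIs and 53.4% of the Il5 UMIs were in 1 cell, and without it the ratios were -2.71 and -1.59. With untransduced OT1 cells Il13 had 1 UMI and Il5 had 0 UMIs in the CD8 T gates of both days together. Il1rl1, the third of the ILC2 markers with enough UMIs in this gate, was at 16.3 and 3.50 CPM.

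Arg1 was also read in T cells that had Cd3 but no Cd4 or Cd8 UMI, with 6 UMIs in 3 of 135 cells at day 5 and 89 UMIs in 16 of 177 cells at day 12, or 7.23 and 74.6 CPM. In ILC2-marked cells it was at 483 CPM in 11 cells and 419.9 CPM in 19 cells.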
